A study of Mus musculus with 12 samples.

Results

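RNA-binding proteins that set tissue-specific exon choice were followed in mouse liver: Esrp2, Rbfox2, Mbnl1, Mbnl2, Celf1, Ptbp1, Rbm4, Rbm5, Rbm10 and Khdrbs3. They were chosen by gene symbol, 10 genes of 22456 in the expression table, and each was examined both for its mRNA level and for the use of exons in its own transcripts. The skipped-exon tables held 167 events of these genes, 119 in the table of fasted liver and 116 in that of refed liver, with 68 in both. An event is 1 exon between a given pair of neighbouring exons, so the 167 events covered 126 exons, of which 75 matched an exon of the GENCODE M21 annotation (mouse genome build GRCm38). Whole liver was sequenced from WT and Lpin1-/- male mice of several months of age, fed chow, on the BALB/cByJ background. The Lpin1-/- mice carry the fatty liver dystrophy (fld) allele in every tissue, so what liver cells did cannot be told apart from effects of other organs. In each genotype 3 mice were fasted for 16 h and 3 were fasted for 16 h and then refed for 5 h, giving 4 groups of 3 libraries, and refed livers were collected later in the day than fasted ones. Lpin1 itself was listed at 22.0, 0.73 and 1.76 RPKM in fasted WT replicates 1 to 3, so replicate 1 alone was high. It was at 0.78 to 2.92 in refed WT, 0.04 to 0.06 in fasted Lpin1-/- and 0.01 to 0.02 in refed Lpin1-/- liver.

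These proteins bind short RNA motifs in and around alternative exons and raise or lower exon inclusion according to where they bind. Esrp2 is the epithelial regulator that hepatocytes express, Mbnl and Celf proteins act in opposite directions on many developmentally controlled exons, and Ptbp1 and Rbm4 are antagonists on several pyrimidine-rich sites. Several of the genes also splice their own transcripts in alternative ways, some of which yield RNA that is degraded by nonsense-mediated decay.

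Fasted WT replicate 1 and refed Lpin1-/- replicate 1 stood apart from the other libraries of their groups. Fasted WT replicate 1 was the highest of its group for 8 of the 10 regulators, against 55.4% of the 11507 genes tested, and refed Lpin1-/- replicate 1 was also the highest for 8 of 10, against 48.7% of genes. Results that rest on these libraries are therefore given with and without both of them, an alternative chosen after the data were seen. That fit called Mbnl2 in fasted liver (1.34, limma adjusted p = 0.0157) and on refeeding of WT (1.55, limma adjusted p = 0.0395), which the fit of all libraries did not. Each library comes from a separate mouse per the labels. In bulk liver, fewer cells of a type and less RNA per cell cannot be told apart.

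**Figure D1:**
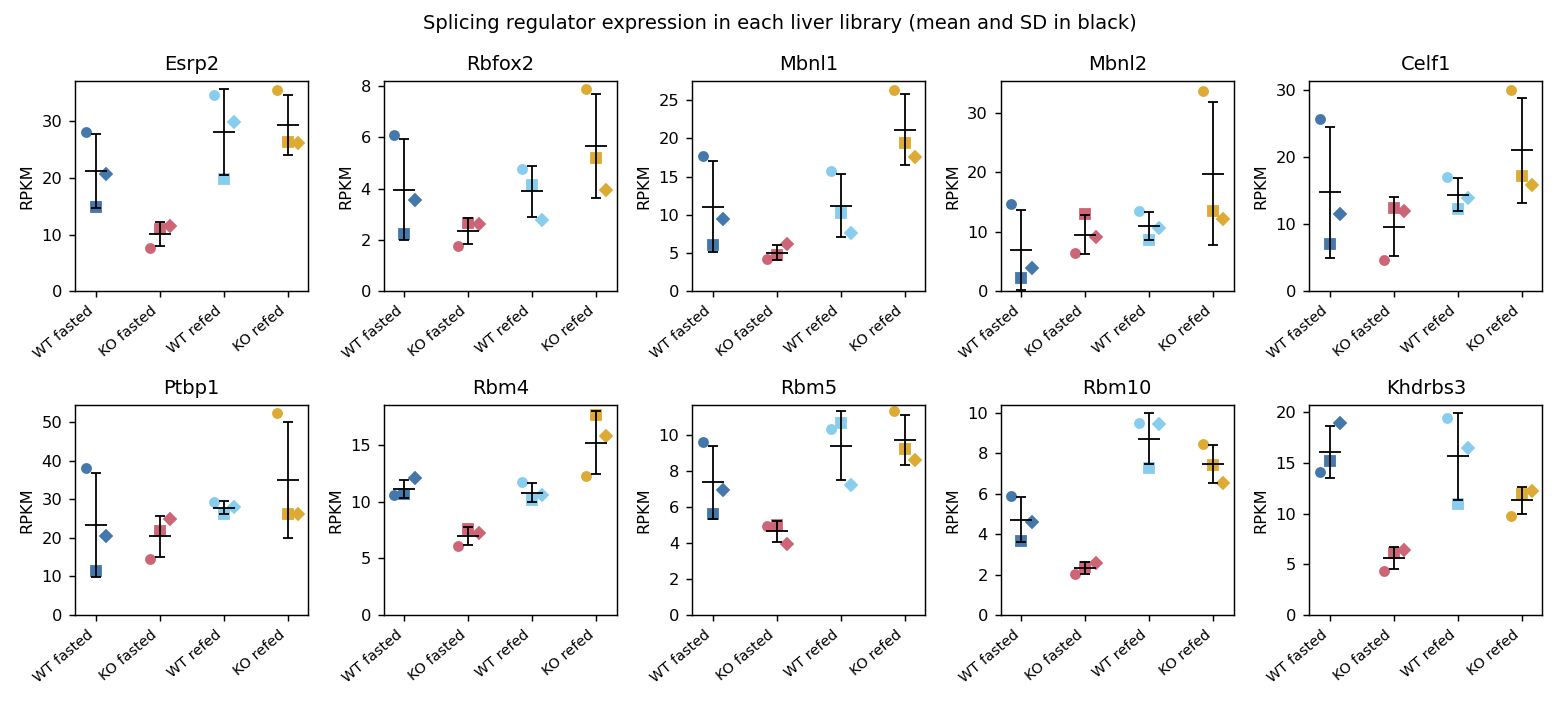
RPKM of each regulator in the 12 liver libraries (y axis, starting at 0; circles, squares and diamonds are replicates 1, 2 and 3), with the group mean and SD in black. Esrp2, Rbm4, Rbm5, Rbm10 and Khdrbs3 have all 3 fasted Lpin1-/- libraries below all 3 fasted WT libraries, and the circle is the highest point of fasted WT, and of refed Lpin1-/- (labelled KO), for 8 of 10 genes.

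Expression of 4 regulators fell in fasted Lpin1-/- liver relative to fasted WT liver: Khdrbs3, Esrp2, Rbm10 and Rbm4. None of the 10 rose. Values are RPKM (read number corrected for transcript length and library size), and differences were tested as log2(RPKM + 1) with limma across 11507 genes with Benjamini-Hochberg adjustment. Of all genes tested, 18.8% passed an adjusted p of 0.05 in this comparison and 13.2% passed and were lower, against 4 of 10 regulators. The regulators' median difference was -0.58 on the log2 scale and that of all genes was -0.14. Rescaling each library by its median ratio over genes brought the median of all genes to 0.01 and changed the calls over all genes from 648 higher and 1520 lower to 1059 higher and 1199 lower, and left 3 regulators called, without Rbm4. Esrp2, Rbm4 and Rbm5 were among genes the study itself drew from these libraries, so their direction is not independent evidence.

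Khdrbs3 encodes a STAR-family RNA-binding protein, also called T-STAR, that is best known from brain and testis. In fasted WT liver it was at 14.1, 15.2 and 18.9 RPKM in replicates 1 to 3, and in fasted Lpin1-/- liver at 4.34, 6.10 and 6.37 RPKM. The groups did not overlap, and the difference of -1.38 (SE 0.23, n = 3 against 3) on the log2 scale had a limma adjusted p of 0.0024. It stayed past the threshold in all 19 alternative analyses, with adjusted p from 0.0014 to 0.0171.

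Esrp2 encodes epithelial splicing regulatory protein 2. It measured 28.1, 14.95 and 20.6 RPKM in fasted WT liver and 7.69, 11.1 and 11.5 RPKM in fasted Lpin1-/- liver. All 3 Lpin1-/- libraries lay below the lowest WT library, a difference of -0.98 (SE 0.27, n = 3 against 3, limma adjusted p = 0.0276). Without fasted WT replicate 1 the difference was -0.76 and its limma adjusted p 0.0814, and over all alternatives the adjusted p ran from 0.0151 to 0.0955. The calls of Esrp2 and Rbm10 were both lost without fasted WT replicate 1 or 3 or without fasted Lpin1-/- replicate 1 or 2, in each case with the same direction.

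Rbm10 and Rbm5 are related proteins that act in early spliceosome assembly. Rbm10 was at 5.89, 3.64 and 4.62 RPKM in fasted WT liver and at 2.01, 2.38 and 2.59 RPKM in fasted Lpin1-/- liver. The groups did not overlap and differed by -0.77 (SE 0.20, n = 3 against 3, limma adjusted p = 0.0198; 0.0130 to 0.0987 over the alternatives). Rbm5 was at 9.62, 5.64 and 6.93 RPKM in fasted WT and at 4.98, 5.01 and 3.98 RPKM in fasted Lpin1-/- liver. Its groups did not overlap either, but the difference of -0.55 (SE 0.22) missed the threshold with a limma adjusted p of 0.107 and was -0.36 without fasted WT replicate 1. A gap between groups of this kind, in the lower direction, was present in 5 of 10 regulators and in 22.2% of all genes tested.

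Rbm4, a regulator that opposes Ptbp1 on several exons, was at 10.7, 10.7 and 12.1 RPKM in fasted WT and at 6.08, 7.62 and 7.23 RPKM in fasted Lpin1-/- liver, a difference of -0.61 (SE 0.17, n = 3 against 3, limma adjusted p = 0.0312). The groups did not overlap. The call was lost on rescaling (-0.43, limma adjusted p = 0.121), with the replicate number as a block (limma adjusted p = 0.0506) and without any 1 of 5 libraries, fasted WT replicate 3, each fasted Lpin1-/- replicate or refed Lpin1-/- replicate 3, with adjusted p up to 0.134 over the alternatives. Rbm4 also lost the call when only the 6 fasted libraries were fitted. Its gene model overlaps that of Gm21992, a protein-coding model on the same strand listed at a mean of 9.79 RPKM, so reads may have been divided between the models and the Rbm4 level is uncertain. Gm21992 was also the gene whose profile was most like that of Rbm4 (Pearson r = 0.98 over the 12 libraries). Listed genes on the opposite strand overlap Rbm10 (Ndufb11, mean of 337 RPKM), Esrp2 (Nfatc3, 4.59 RPKM) and Ptbp1 (Plppr3, 0.125 RPKM). Their part in those levels was not tested.

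The other regulators were not called. Mbnl1, a zinc-finger regulator of developmental exons, was at 17.7, 6.05 and 9.51 RPKM in fasted WT and 4.21, 4.78 and 6.19 RPKM in fasted Lpin1-/- liver, and the groups overlapped (-0.89, limma adjusted p = 0.0954). Its difference depended on single libraries, at -0.52 (limma adjusted p = 0.277) without fasted WT replicate 1 and -1.22 (limma adjusted p = 0.0282) without fasted WT replicate 2. Its paralogue Mbnl2 was the only regulator with a difference above 0 (0.69, SE 0.53, limma adjusted p = 0.400): fasted WT replicate 1 was at 14.7 RPKM, the other WT libraries at 2.28 and 3.91 RPKM, and Lpin1-/- liver at 6.46 to 13.1 RPKM. Without that WT library and refed Lpin1-/- replicate 1 the value was the 1.34 given above. Celf1, Rbfox2 and Ptbp1 overlapped between genotypes, with differences of -0.49, -0.51 and -0.06, and of -0.017, -0.21 and 0.36 without fasted WT replicate 1.

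Summed markers of stellate and endothelial cells moved in the same comparison. The summed RPKM of 6 hepatic stellate cell markers was 65.6 to 153 in fasted WT and 193 to 284 in fasted Lpin1-/- liver, and that of 6 endothelial markers 18.8 to 44.4 and 46.4 to 56.0. Of these markers only Lyve1 and Vwf, both from the endothelial list, passed the test, both higher in fasted Lpin1-/- liver. No single stellate cell marker passed. The summed hepatocyte markers (5 measured) overlapped, at 52931 to 68602 and 57223 to 70723 RPKM, as did cholangiocyte, Kupffer cell and lymphocyte markers, and no marker of any list was at 0 in any library. The part of these shifts in the fall of the 4 regulators was not tested.

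**Figure D2:**
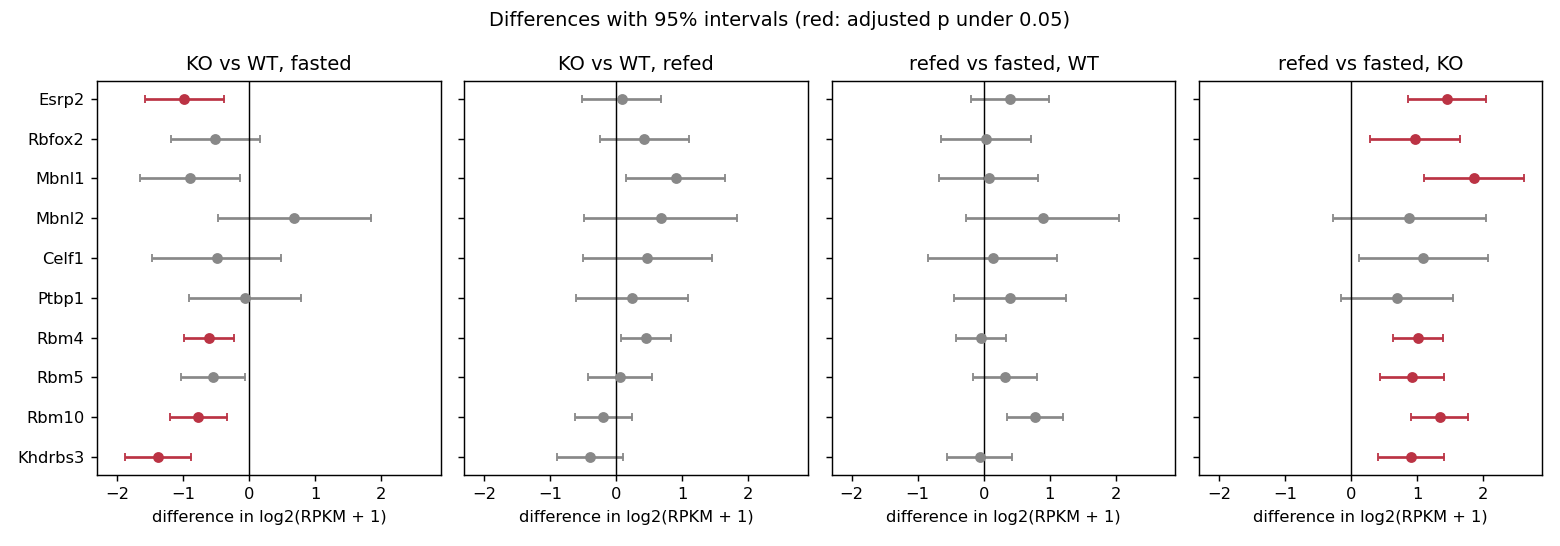
Differences in log2(RPKM + 1) for the 10 regulators (points) with 95% intervals (bars) in 4 comparisons, with red marking an adjusted p under 0.05 and KO standing for Lpin1-/-. Red points lie below 0 in the fasted genotype comparison (4 of 10) and above 0 on refeeding of Lpin1-/- mice (7 of 10), and neither the refed genotype comparison nor refeeding of WT mice has any.

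In refed liver no regulator differed between genotypes past the threshold, against 6.67% of all genes tested (299 higher and 468 lower, and 414 higher and 414 lower after rescaling). By limma 2 of 10 had an unadjusted p under 0.05, Mbnl1 and Rbm4, against 22.5% of all genes, both with all refed Lpin1-/- libraries above all refed WT libraries, a gap that 14.8% of all genes tested showed in that direction. Mbnl1 was at 15.7, 10.3 and 7.58 RPKM in refed WT and at 26.4, 19.4 and 17.6 RPKM in refed Lpin1-/- liver (0.90, SE 0.35, limma adjusted p = 0.149). Rbm4 was at 11.7, 10.1 and 10.6 RPKM in refed WT and at 12.2, 17.6 and 15.8 RPKM in refed Lpin1-/- liver (0.45, SE 0.17, limma adjusted p = 0.153). Khdrbs3 still had a negative value, with 19.5, 10.97 and 16.5 RPKM against 9.82, 12.0 and 12.3 RPKM, but the groups overlapped and its 95% interval ran from -0.90 to 0.10.

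Refeeding raised 7 of the 10 regulators in Lpin1-/- liver and called none in WT liver. In Lpin1-/- mice the 7 were Mbnl1, Esrp2, Rbm10, Rbm4, Rbfox2, Rbm5 and Khdrbs3, and all rose, where 20.7% of all genes tested were called and 17.8% were called and higher. The regulators' median difference was 0.99 and that of all genes 0.25. All refed libraries lay above all fasted ones for 9 of 10 regulators in Lpin1-/- liver, as they did for 37.5% of all genes. Rescaling changed the calls over all genes from 2046 higher and 336 lower to 1024 higher and 706 lower. In WT liver 1.72% of all genes were called (175 higher and 23 lower, and 48 higher and 28 lower after rescaling), and by limma 1 regulator of 10, Rbm10, had an unadjusted p under 0.05, against 13.9% of all genes.

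Mbnl1 had the largest log2 difference of the 10 on refeeding of Lpin1-/- mice, from the 4.21 to 6.19 RPKM of fasting to 17.6 to 26.4 RPKM on refeeding (1.86, SE 0.35, limma adjusted p = 0.0046). In WT liver its fasted range of 6.05 to 17.7 RPKM enclosed the refed range of 7.58 to 15.7 RPKM (0.07, SE 0.35, and 0.45 without fasted WT replicate 1, limma adjusted p = 0.412). Esrp2 rose from 7.69 to 11.5 RPKM in fasted to 26.2 to 35.5 RPKM in refed Lpin1-/- liver (1.46, SE 0.27, limma adjusted p = 0.0046). Refed WT liver held 34.7, 19.9 and 29.8 RPKM of Esrp2, which overlapped both fasted WT and refed Lpin1-/- liver. Rbm10 was at 8.46, 7.40 and 6.56 RPKM in refed Lpin1-/- liver (1.35, SE 0.20, limma adjusted p = 0.0015 against fasted) and at 9.50, 7.26 and 9.43 RPKM in refed WT liver (0.78, SE 0.20, limma adjusted p = 0.0832 against fasted). In both genotypes the Rbm10 feeding states did not overlap. Leaving out fasted WT replicate 1 brought the WT response of Rbm10 to 0.92, with a limma adjusted p of 0.0477.

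The smaller responses of Lpin1-/- liver were 1.02 for Rbm4 (SE 0.17), 0.97 for Rbfox2 (SE 0.31), 0.92 for Rbm5 (SE 0.22) and 0.91 for Khdrbs3 (SE 0.23). Rbfox2, which binds UGCAUG, was at 1.76, 2.65 and 2.61 RPKM in fasted and 7.89, 5.20 and 3.94 RPKM in refed Lpin1-/- liver. Its limma adjusted p of 0.0462 was the nearest to the threshold, became 0.159 without refed Lpin1-/- replicate 1 and ranged from 0.0217 to 0.159 over the alternatives, 13 of 18 of which lost the call. Rbm5 lost it without refed Lpin1-/- replicate 1 (limma adjusted p = 0.0510), and Khdrbs3 without fasted Lpin1-/- replicate 1 or refed Lpin1-/- replicate 2 or 3. Celf1 gained it without fasted WT replicate 1 (limma adjusted p = 0.0455). Rescaling the libraries, which brought the median of all genes to -0.03, left 5 regulators called, without Rbfox2 and Khdrbs3. Celf1, Ptbp1 and Mbnl2 were not called in either genotype, and their refed Lpin1-/- replicate 1 stood at 30.1, 52.4 and 33.6 RPKM, where the next library of that group was at 17.1, 26.3 and 13.5 RPKM.

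On refeeding of Lpin1-/- mice the endothelial markers moved the other way, and Kupffer cell markers, which had overlapped between fasted genotypes, fell. Summed endothelial markers went from 46.4 to 56.0 RPKM in fasted to 31.8 to 43.6 RPKM in refed liver and summed Kupffer cell markers from 216 to 567 RPKM to 66.6 to 163 RPKM, both without overlap. Stellate cell, hepatocyte, cholangiocyte and lymphocyte markers overlapped. Of single markers only Vwf and Clec4f passed the test, both lower in refed liver. The part of these shifts in the rise of the 7 regulators was not tested.

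The test of the difference itself, the response to refeeding in Lpin1-/- minus that in WT liver, passed for none of the 10 regulators, where 1.28% of all genes tested passed. By limma 4 of 10 had an unadjusted p under 0.05, against 18.1% of all genes. They were Rbm4 (1.05, SE 0.25, limma adjusted p = 0.0619), Mbnl1 (1.79, SE 0.49, limma adjusted p = 0.0976), Khdrbs3 (0.97, SE 0.32, limma adjusted p = 0.152) and Esrp2 (1.06, SE 0.38, limma adjusted p = 0.185). A different response to feeding was thus not established for any regulator at this number of mice. Without fasted WT replicate 1 and refed Lpin1-/- replicate 1 together, 4 regulators were called in the fasted genotype comparison (Khdrbs3, Mbnl2, Rbm4 and Rbm10), none in the refed one, 2 on refeeding of WT (Rbm10 and Mbnl2), 6 on refeeding of Lpin1-/- (without Rbfox2) and 1 (Rbm4, limma adjusted p = 0.0331) in this test. The shares of all genes called in that fit were 18.5%, 4.58%, 1.96%, 20.9% and 1.9% in the same order. In it the values of Mbnl1 and Esrp2 in the test of the difference were 1.25 and 0.70. Mbnl1 passed that test on rescaling (limma adjusted p = 0.0449) and without fasted WT replicate 2.

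The levels of several regulators followed each other over the 12 libraries. Pearson r of log2(RPKM + 1) was 0.95 for Esrp2 and Rbm10, 0.95 for Rbfox2 and Mbnl1 and 0.93 for Celf1 and Ptbp1, and -0.13 for Mbnl2 and Khdrbs3. These points share libraries and scaling. The genes of most similar profile were Mcmbp (r = 0.99) and Cyb5d1 (r = 0.99) for Esrp2, Zbtb33 (r = 0.99) and Cul5 (r = 0.98) for Mbnl1, and BC024978 (r = 0.99) and Irf2bp1 (r = 0.98) for Rbm10. For Khdrbs3 they were Ppp2r5c (r = 0.98) and Lactb2 (r = 0.97), for Rbm5 Helz2 (r = 0.98) and Fads6 (r = 0.97), and for Rbfox2 Ralgapb (r = 0.98) and Cobl (r = 0.98). Slc25a11 (r = 0.97) came after Gm21992 for Rbm4.

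Among 39 other splicing regulators, 22 passed the filter of a mean of 0.5 RPKM, and the 17 below it included the paralogues Esrp1, Rbfox1, Rbfox3, Mbnl3 and Khdrbs2. In fasted liver 2 of the 22 were higher in Lpin1-/- mice and none lower: Srrm4, which promotes neuronal microexons (0.08 to 0.37 RPKM in WT and 0.92 to 2.71 RPKM in Lpin1-/- liver), and Rbm17, a component of the spliceosome (22.1 to 35.4 and 37.6 to 62.0 RPKM). In refed liver Ptbp2, the neuronal paralogue of Ptbp1, was the only one called, at 1.30 to 2.47 RPKM in WT and 3.61 to 6.16 RPKM in Lpin1-/- liver. Refeeding of Lpin1-/- mice raised 6 and lowered 1, and refeeding of WT mice called none. Of all genes tested, 18.8% were called in fasted liver (648 of 11507 higher) and 6.67% in refed liver. Refeeding called 20.7% of all genes in Lpin1-/- and 1.72% in WT mice. Their median difference in fasted liver was -0.12, near the -0.14 of all genes.

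Exons of the regulators' own transcripts were then compared. Inclusion is the share of transcripts that hold the exon, taken from counts of reads that join or cover it and of reads that skip it, each divided by the length they can come from. The log2 ratio of the 2 forms was tested with limma across every event with at least 10 counts in each library, and events of 1 exon with different neighbours share reads. In fasted liver 19 of 110 regulator events, in 17 of 88 exons, passed, against 11.3% of all events tested. Inclusion was higher in Lpin1-/- liver for 7 (3.52% of all events) and lower for 12 (7.81%), and 14 of the 19 could be tested in refed liver. The median log2 difference was -0.58 for all events and -0.85 for regulator events. Fasted Lpin1-/- libraries held 12617 to 20320 inclusion counts of regulator events and fasted WT libraries 20725 to 48702. Their skipping counts overlapped, at 1529 to 2801 and 1508 to 5493. With 0.5 added to each count, the ratio of a form with 0 counts depends on the count of the other form. The part of these totals in the direction of the calls was not tested. Rbm5 (4 events), Mbnl1 (5), Esrp2 (4), Mbnl2 (2), Celf1, Khdrbs3, Ptbp1 and Rbm10 (1 each) had called events, and Rbfox2 and Rbm4 had none. In 13 of the 19 the rarer form averaged under 5 counts per library, and edgeR's quasi-likelihood test on the counts called 8 of the 110, against 6.74% of all events.

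In refed liver no regulator event passed, of 111 tested, against 0.97% of all events, and by limma 14 had an unadjusted p under 0.05, against 14.3% of all events. Refeeding called 12 of 64 regulator events in Lpin1-/- liver, against 7.8% of all events, with 7 higher (5.31%) and 5 lower (2.5%), and none in WT liver, where 0% of all events passed by limma and 4 of 64 regulator events had an unadjusted p under 0.05, against 5.13% of all events. The 12 lay in Mbnl1 (5), Rbm5 (3), Ptbp1 (2) and Rbm10 (2). The median log2 difference of all events on refeeding of Lpin1-/- mice was 0.34. Of the 64 events tested in both feeding states, 15 differed between genotypes by at least 10 percentage points of mean inclusion in fasted liver, against 11.1% of all 28444 such events, and 2 did so in refed liver, against 4.26%. The 2 were at overlapping exons of Mbnl2.

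**Figure D3:**
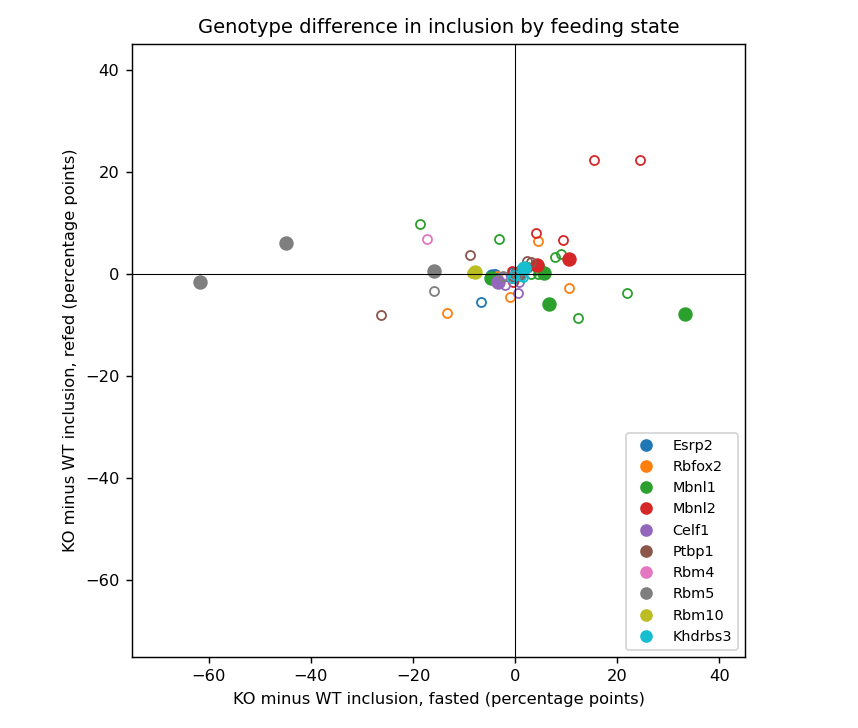
Lpin1-/- (KO) minus WT mean inclusion in fasted liver (x axis, percentage points) against the same difference in refed liver (y axis) for the 64 regulator events tested in both, coloured by gene, with filled points passing the test in fasted liver. Fasted differences run from -61.6 to 33.2 points, whereas refed differences run from -8.58 to 22.4 points.

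In percentage points of mean inclusion, the 3 largest genotype differences among the 110 events tested in fasted liver were in Rbm5. The study had already named Rbm5, from these libraries, as misspliced in Lpin1-/- liver in the fasted state alone, so this is not independent evidence. It also showed altered Rbm5 splicing by RT-PCR in liver and after Lpin1 knockdown in a mouse hepatoma line. Its text does not name the exons. On the log2 scale of the test the Khdrbs3 exon described below came first (4.39), before Rbm5. An exon of 85 bases and an exon of 74 bases, neither a multiple of 3, were included at 13.8% to 53.2% in fasted Lpin1-/- liver and at 81.6% to 100% in the other 3 groups. They are exons 16 and 6 of the 25 exons of transcript Rbm5-214, both coding, at chr9:107750008-107750092 and chr9:107759776-107759849 on the minus strand of GRCm38. In GENCODE M21, transcripts that skip the exon of 74 bases are classed as nonsense-mediated decay. The exon sequences, which are the reference ones of GENCODE M21 and not read from these mice, are shown because they are the RNA lost on skipping, with the exon in capitals and 12 bases of each neighbouring exon in lower case.
Rbm5 exon of 85 bases: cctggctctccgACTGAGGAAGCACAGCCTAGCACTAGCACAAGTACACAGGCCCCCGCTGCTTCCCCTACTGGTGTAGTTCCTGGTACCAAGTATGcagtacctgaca
Rbm5 exon of 74 bases: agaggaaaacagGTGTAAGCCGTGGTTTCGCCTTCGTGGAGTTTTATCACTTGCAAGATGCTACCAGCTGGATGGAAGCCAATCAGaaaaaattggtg

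Inclusion of the Rbm5 exon of 85 bases was 86.3%, 81.6% and 87.2% in the 3 fasted WT libraries and 13.8%, 31.5% and 25% in the 3 fasted Lpin1-/- libraries. The counts behind it were 226, 120 and 169 for inclusion with 16, 12 and 11 for skipping in WT, and 18, 31 and 30 with 50, 30 and 40 in Lpin1-/- liver. The form that skips the exon was thus more frequent than the form that holds it in every fasted Lpin1-/- library and in no fasted WT library. The log2 ratio of the forms fell by 4.25 (SE 0.66, n = 3 against 3, limma adjusted p = 0.0019), and the call held in all 13 alternatives, with adjusted p from 0.0007 to 0.0205 (0.0031 by edgeR). On refeeding, inclusion was 100%, 92.6% and 92.0% in WT and 88.6%, 96.2% and 95.1% in Lpin1-/- liver, and the genotypes overlapped (limma adjusted p = 0.717). The rise on refeeding in Lpin1-/- liver, 5.63 (SE 0.92) on the log2 scale, passed with a limma adjusted p of 0.0025 and in all 18 alternatives.

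The difference between feeding states in the genotype effect was less certain for this exon. It was 3.21 (SE 1.30) with a limma adjusted p of 0.285 for the event above. A further event joins the same exon to a next exon that is 3 bases shorter at its start, and there the value was 5.00 (SE 0.99, limma adjusted p = 0.0344). Its skipping counts, however, were 0, 0 and 0 in fasted WT and 0, 4 and 2 in fasted Lpin1-/- liver, and the call was made in 3 of 15 alternatives, with adjusted p up to 0.522.

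The Rbm5 exon of 74 bases was included at 91.3%, 84.04% and 100% in fasted WT and at 44.4%, 43.1% and 53.2% in fasted Lpin1-/- liver, on 5, 2 and 0 skipping counts and 6, 12 and 8 skipping counts. The groups did not overlap, and the log2 ratio fell by 3.87 (SE 0.84, limma adjusted p = 0.0109, called in 7 of 11 alternatives, edgeR adjusted p = 0.0523). Refed libraries were at 95.1%, 93.2% and 88.1% in WT and at 96.1%, 100% and 98.1% in Lpin1-/- liver, so there the Lpin1-/- libraries lay just above the WT ones (limma adjusted p = 0.243). The rise on refeeding of Lpin1-/- mice (5.52, SE 0.78, limma adjusted p = 0.0011) was called in all 15 alternatives, and the difference from the WT response was 5.74 (SE 1.11, limma adjusted p = 0.0323, called in 4 of 15 alternatives and not by edgeR, with an adjusted p of 0.228). An unannotated form of the exon, 118 bases long with the same first base, went the same way, at 84.2%, 79.3% and 100% in fasted WT and 42.2%, 36.7% and 24.2% in fasted Lpin1-/- liver (limma adjusted p = 0.0088). It shares its skipping reads with the exon of 74 bases. The events of Rbm5 at 5.00 and 5.74 were the 2 of 64 regulator events that passed the test of the difference in response, both higher, where 0.777% of all events passed and 0.471% passed and were higher.

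**Figure D4:**
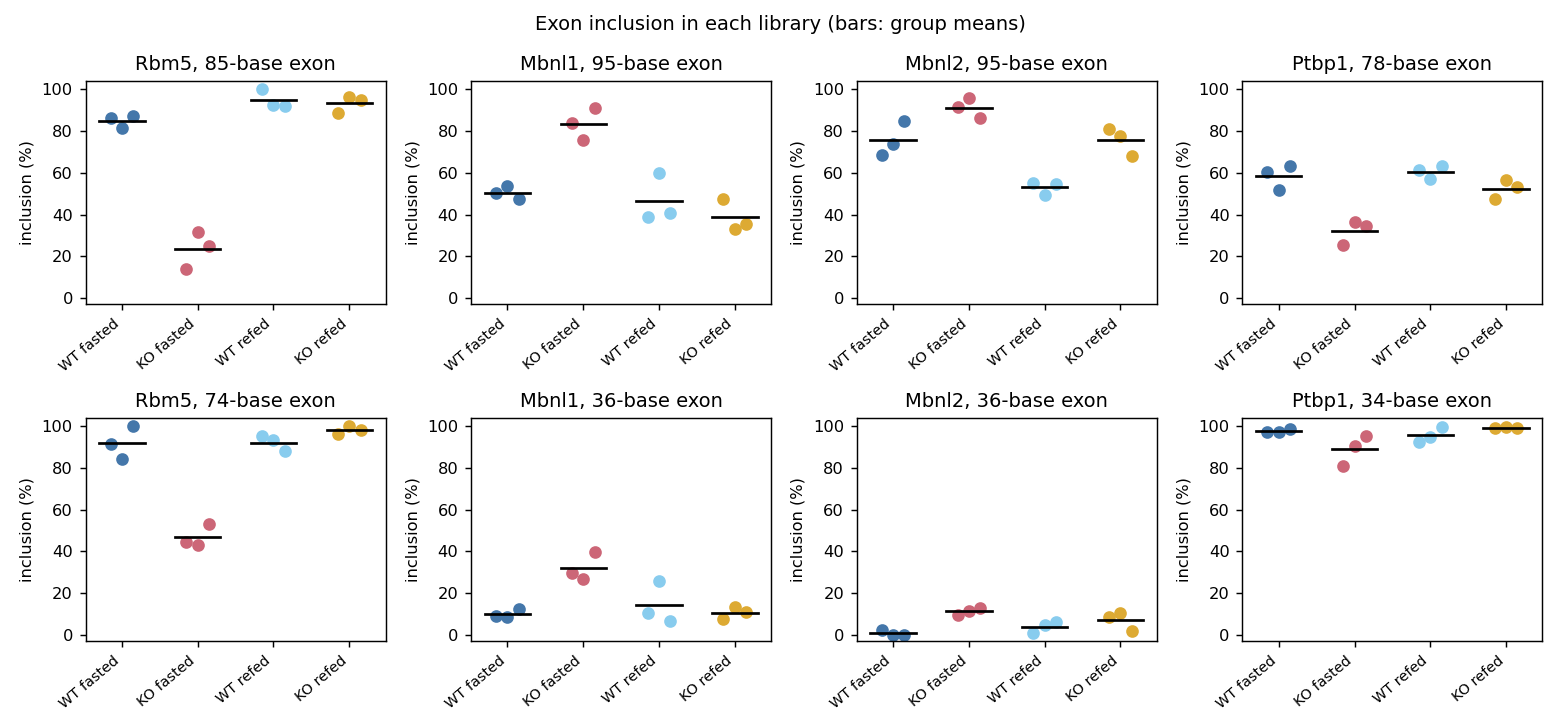
Inclusion (y axis, percent) of 8 exons of Rbm5, Mbnl1, Mbnl2 and Ptbp1 in the 3 libraries of each group (points, KO for Lpin1-/-), with group means as horizontal lines. Fasted Lpin1-/- libraries lie apart from the other groups for the Rbm5 exons (13.8 to 53.2%), the Mbnl1 exon of 95 bases (75.8 to 91.2%) and the Ptbp1 exon of 78 bases (25.3 to 36.4%). By a narrow margin they also do so for the Mbnl1 exon of 36 bases (26.6 to 39.5%, other groups up to 25.5%). The same holds for the Mbnl2 exon of 95 bases (86.5 to 95.96%, other groups up to 84.99%).

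Mbnl1 and Mbnl2 have 3 corresponding alternative coding exons, of 54, 36 and 95 bases, near the end of each transcript, the first of which is known to favour nuclear localisation of the protein. The paired exons are identical at 46 of 54, 31 of 36 and 81 of 95 bases. They are shown in pairs so that the values below can be read against what the paralogues share, with the exon in capitals and 12 bases of each neighbouring exon of the transcript in lower case.
Mbnl1 exon of 54 bases: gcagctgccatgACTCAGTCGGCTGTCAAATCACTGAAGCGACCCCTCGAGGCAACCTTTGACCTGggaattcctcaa
Mbnl2 exon of 54 bases: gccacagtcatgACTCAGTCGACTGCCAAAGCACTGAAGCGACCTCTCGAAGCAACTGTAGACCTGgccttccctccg
Mbnl1 exon of 36 bases: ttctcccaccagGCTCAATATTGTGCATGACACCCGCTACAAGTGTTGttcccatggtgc
Mbnl2 exon of 36 bases: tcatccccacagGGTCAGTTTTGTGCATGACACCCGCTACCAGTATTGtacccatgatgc
Mbnl1 exon of 95 bases: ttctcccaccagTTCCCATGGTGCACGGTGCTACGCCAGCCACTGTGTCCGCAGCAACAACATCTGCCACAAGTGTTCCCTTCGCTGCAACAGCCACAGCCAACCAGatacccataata
Mbnl2 exon of 95 bases: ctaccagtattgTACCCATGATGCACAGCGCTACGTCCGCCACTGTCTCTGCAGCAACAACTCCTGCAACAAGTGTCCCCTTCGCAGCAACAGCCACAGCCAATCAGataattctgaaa

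In Mbnl1 these exons lie on the plus strand of GRCm38 at chr3:60614683-60614736, chr3:60621423-60621458 and chr3:60622146-60622240. The exon of 95 bases was included at 50.4%, 53.6% and 47.3% in fasted WT and at 83.96%, 75.8% and 91.2% in fasted Lpin1-/- liver, on 43 to 135 and 8 to 18 skipping counts. The groups lay far apart relative to their spread, and the log2 ratio was higher by 2.39 (SE 0.67, limma adjusted p = 0.0359). The call was made in 6 of 13 alternatives, was lost without any 1 of the 6 libraries and was not made by edgeR (adjusted p = 0.141). Refed livers were at 39.0%, 60.0% and 40.7% in WT and 47.4%, 33.2% and 35.7% in Lpin1-/- mice, so the fall on refeeding was 3.08 (SE 0.55, limma adjusted p = 0.0041) in Lpin1-/- liver and passed in all 18 alternatives. The test of the difference between genotypes in that response did not pass (limma adjusted p = 0.112). The length of 95 bases is not a multiple of 3, so the reading frame after it differs between the forms.

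The Mbnl1 exon of 36 bases was read against the same skipping junction and moved in the same direction, at 9.2%, 8.4% and 12.1% in fasted WT and 29.4%, 26.6% and 39.5% in fasted Lpin1-/- liver (limma adjusted p = 0.0526). With refed values of 10.6%, 25.5% and 6.5% in WT and 7.6%, 13.2% and 10.8% in Lpin1-/- liver, refeeding of Lpin1-/- mice gave a fall of 2.02 (limma adjusted p = 0.0448). Set instead against transcripts that keep the exon of 95 bases, the fasted groups overlapped (limma adjusted p = 0.462). The exon of 54 bases did not pass in any comparison, with mean inclusion of 24.98%, 28%, 25.1% and 25.1% in fasted WT, fasted Lpin1-/-, refed WT and refed Lpin1-/- liver. The exons of 36 and 54 bases were named after their values were seen.

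Further Mbnl1 exons were called in fasted liver on few counts of the rarer form. An exon of 63 bases at chr3:60623979-60624041, known from the transcript Mbnl1-212 that has no coding sequence, had 0, 0 and 1 inclusion counts in fasted WT and 18, 7 and 7 in fasted Lpin1-/- liver (limma adjusted p = 0.0110). It returned to 1, 0 and 0 counts in refed Lpin1-/- liver, a change called in all 17 alternatives. The coding exon of 201 bases (exon 3 of Mbnl1-214) and an unannotated form of it of 226 bases were skipped on the same 5, 3 and 2 counts in fasted Lpin1-/- and 1, 0 and 0 in fasted WT liver. An exon of 1049 bases (exon 2 of Mbnl1-201, partly coding), named after its values were seen, was included at 70.5%, 66.3% and 90.7% in fasted and 98.4%, 99.3% and 100% in refed Lpin1-/- liver (limma adjusted p = 0.0128 for refeeding), and refed WT libraries spread from 71.55% to 100%. This was 1 of 3 events of that exon, and the others did not show the change. In the event with the most counts of the rarer form, inclusion was 71.5%, 64.0% and 57.1% in fasted WT and 58.0%, 76.2% and 81.7% in fasted Lpin1-/- liver, with overlap, and refeeding of Lpin1-/- mice had a limma adjusted p of 0.905. In the remaining event it was 94.5% to 97.9% in fasted WT and 94.95%, 100% and 100% in fasted Lpin1-/- liver (limma adjusted p = 0.463).

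In Mbnl2 the exon of 36 bases at chr14:120403336-120403371 was included at 2.1%, 0% and 0% in fasted WT and at 9.5%, 11.3% and 12.8% in fasted Lpin1-/- liver (2.77, SE 0.69, limma adjusted p = 0.0215, called in 4 of 11 alternatives). These came from 3, 0 and 0 inclusion counts in WT and 9, 17 and 13 in Lpin1-/- liver, and edgeR did not call it (adjusted p = 0.168). Refed groups overlapped, at 1.0% to 6.3% in WT and 1.9% to 10.2% in Lpin1-/- liver. The exon of 95 bases at chr14:120404638-120404732 was called with the exon of 36 bases as its neighbour, where WT libraries had 4, 0 and 2 skipping counts and Lpin1-/- libraries none (limma adjusted p = 0.0151). The event of the same exon with the most reads was at 68.4%, 73.9% and 84.99% in fasted WT and 91.4%, 95.96% and 86.5% in fasted Lpin1-/- liver, without overlap (limma adjusted p = 0.130). In refed liver that event was at 55.2%, 49.5% and 54.9% in WT and 81.0%, 77.6% and 68.1% in Lpin1-/- mice, again without overlap and again past no threshold (limma adjusted p = 0.233). It was 1 of the 2 events with a refed difference of at least 10 points. The Mbnl2 exon of 54 bases had mean inclusion of 32.85%, 42.3%, 30.9% and 37.5% in the 4 groups in the order above, with overlap in both feeding states.

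Ptbp1 represses exons that follow pyrimidine-rich tracts and controls its own level, since skipping of its exon of 34 bases yields a transcript that is degraded. The exon of 78 bases separates the main protein forms, which differ in splicing activity. Both are coding exons of Ptbp1-216, exons 10 and 8 of 14, on the plus strand of GRCm38 at chr10:79862014-79862047 and chr10:79860117-79860194. They are shown because they give the best-read and the autoregulatory event of the gene, with capitals and flanks as above.
Ptbp1 exon of 78 bases: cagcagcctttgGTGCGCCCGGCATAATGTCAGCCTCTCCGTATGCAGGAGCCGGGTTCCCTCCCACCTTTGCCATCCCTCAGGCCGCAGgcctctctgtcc
Ptbp1 exon of 34 bases: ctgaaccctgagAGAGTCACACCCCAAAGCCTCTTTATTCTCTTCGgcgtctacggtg

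The exon of 78 bases had the most counts of the rarer form of any regulator exon described here. Inclusion was 60.5%, 51.6% and 63.1% in fasted WT and 25.3%, 36.4% and 34.7% in fasted Lpin1-/- liver, on 233, 90 and 106 skipping counts and 124, 211 and 245. The groups did not overlap, yet the difference of -1.58 (SE 0.62) had a limma adjusted p of 0.128. With weights from the precision of the counts it was called (limma adjusted p = 0.0123), and it was called in 3 of 13 alternatives. Refed livers were at 61.2%, 57.1% and 63.3% in WT and at 47.3%, 56.8% and 53.1% in Lpin1-/- mice, a smaller gap in the same direction without overlap (limma adjusted p = 0.717).

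The exon of 34 bases, named after its values were seen, was included at 97.3%, 97.4% and 98.4% in fasted WT and at 80.7%, 90.4% and 95.5% in fasted Lpin1-/- liver (limma adjusted p = 0.09999). It was at 99.0%, 99.7% and 99.0% in refed Lpin1-/- liver, and this rise of 3.69 (SE 0.96) passed with a limma adjusted p of 0.0293. Refed WT liver spread from 92.6% to 99.7%. The call in the fasted genotype comparison was for another exon, of 117 bases at chr10:79857579-79857695 in the non-coding transcript Ptbp1-208, whose mean inclusion was 0.0921% in WT and 0.986% in Lpin1-/- liver (limma adjusted p = 0.0319).

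Rbm10 exon 12 (88 bases, chrX:20645959-20646046, Rbm10-204) had no skipping count in fasted WT and 4, 3 and 0 in fasted Lpin1-/- liver (limma adjusted p = 0.0479), and none in refed Lpin1-/- liver (limma adjusted p = 0.0123 for refeeding). An unannotated exon of 182 bases of Rbm10 also rose in inclusion on refeeding of Lpin1-/- mice (limma adjusted p = 0.0104), on 0, 3 and 1 skipping counts in fasted and 1, 0 and 0 in refed liver. Of the Rbm10 events, that of exon 4 (231 bases, chrX:20637426-20637656) had the most counts of the rarer form. It was at 20.4%, 22.7% and 27.5% in refed WT and at 17.7%, 25.8% and 18.2% in refed Lpin1-/- liver, with overlap.

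Esrp2 transcripts had 4 called events in fasted liver, each without a skipping count in fasted WT liver for the neighbours of that event, and other events of the same exons were not called. The called event of exon 9 (43 bases, chr8:106133451-106133493, Esrp2-201) had 4, 1 and 3 skipping counts in fasted Lpin1-/- liver, and of the 4 only this was called by edgeR (adjusted p = 0.0438). A second event of exon 9 went the other way, with 3, 1 and 0 skipping counts in fasted WT and none in fasted Lpin1-/- liver (limma adjusted p = 0.941), and a further one had 1, 0 and 0 against 5, 0 and 0 (limma adjusted p = 0.303). The called event of exon 2 (129 bases, chr8:106136357-106136485) had 0, 4 and 2 skipping counts in fasted Lpin1-/- liver. The event of exon 2 with more reads had 6, 0 and 2 in fasted WT and 0, 13 and 6 in fasted Lpin1-/- liver, with overlap (limma adjusted p = 0.145), so skipping of neither exon was absent from fasted WT liver. In refed liver that event had 3, 1 and 5 skipping counts in WT and 26, 19 and 16 in Lpin1-/- mice. Its inclusion there was 98.4% to 99.4% and 93.0% to 93.4%, without overlap but not called (-2.51, SE 0.58, limma adjusted p = 0.0783). An unannotated exon of 114 bases at chr8:106136570-106136683 had 0, 4 and 2 skipping counts in fasted Lpin1-/- liver in its called event and 0, 1 and 0 in another (limma adjusted p = 0.103), and exon 3 had 0, 3 and 1. The Esrp2 event with the most counts of the rarer form, an unannotated exon of 151 bases in refed liver, was at 0.343% to 1.75% in WT and 1.05% to 4.85% in Lpin1-/- liver.

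Khdrbs3 gained an unannotated exon of 179 bases at chr15:69066709-69066887, with inclusion counts of 0, 0 and 1 in fasted WT and 3, 3 and 10 in fasted Lpin1-/- liver (4.39, SE 0.76, limma adjusted p = 0.0033, edgeR adjusted p = 0.0233). Mean inclusion was 1.68% ± 0.919 (SD, n = 3) in the latter group. Refed Lpin1-/- liver had 8, 6 and 12 counts and refed WT liver 0, 0 and 2 (limma adjusted p = 0.0627), so the groups kept apart in both feeding states. Celf1, the CUG-binding antagonist of Mbnl proteins, had 1 called exon, exon 9 of Celf1-207 (129 bases, chr2:91008172-91008300), at 99.7% to 100% in fasted WT and 95.1% to 97.4% in fasted Lpin1-/- liver, on at most 6 skipping counts (limma adjusted p = 0.0201, edgeR adjusted p = 0.150). In its other event, with different neighbours, the skipping counts were 0, 0 and 0 in fasted WT and 4, 0 and 0 in fasted Lpin1-/- liver, with overlap (limma adjusted p = 0.387). In the called event the exon was at 100% in all refed WT libraries and at 96.9% to 99.7% in refed Lpin1-/- liver (limma adjusted p = 0.280). The Celf1 event with the most counts of the rarer form, of an exon of 152 bases, overlapped between the fasted genotypes at 44.3% to 59.4% and 39.5% to 46.3%.

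The Rbfox2 exon of 40 bases (chr15:77094451-77094490, exon 11 of Rbfox2-204), the Rbfox2 event with the most counts of the rarer form, had mean inclusion of 84.2%, 80.7%, 80.85% and 80.4% in fasted WT, fasted Lpin1-/-, refed WT and refed Lpin1-/- liver, with overlap in both feeding states and a 95% interval of the fasted difference from -1.92 to 1.80 on the log2 scale. The Rbm4 exon of 682 bases (chr19:4787361-4788042, partly coding, exon 3 of Rbm4-206) was at 89.8%, 77.2% and 81.5% in fasted WT and 62.8%, 71.6% and 62.5% in fasted Lpin1-/- liver. The groups did not overlap, but the difference of -1.39 (SE 0.66) had a limma adjusted p of 0.202. It was at 66.3% to 76.4% in refed WT and 68.0% to 83.7% in refed Lpin1-/- liver, so WT and Lpin1-/- mice overlapped there.

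A called level and at least 1 called exon event were found together in 3 of the 10 genes in fasted liver, against 8.4% of the 8523 genes with both measures. At least 1 called event was found in 8 of the 10, against 35.2% of those 8523 genes. The regulators had a median of 11 tested events each and all these genes a median of 5. Rbm4 fell without a called exon, Mbnl1, Rbm5, Celf1, Mbnl2 and Ptbp1 had called exons without a called level, and Khdrbs3, Esrp2 and Rbm10 had both. Rbfox2 had neither.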

How the data were processed

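Per the labels, total RNA of whole liver was made into stranded libraries and sequenced as pairs. The authors deposited RPKM per gene and, per feeding state, skipped-exon tables from rMATS with inclusion and skipping counts per library; the submitters' processing notes name HISAT2 2.0.5, HTSeq 0.6.0 and DESeq2 1.20.0 and build GRCm38. The deposited count lists carry no replicate numbers, and their score and p-value columns from the authors' own comparisons were not used. Lists were assigned to groups by the order in each table's name, after checking that WT lists were identical wherever tables shared the WT group.

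Log2(RPKM + 1) of genes averaging 0.5 RPKM or more was fitted in limma 3.58.1 (trend) over the 4 groups. Events needed 10 or more counts per library; 0.5 was added to each count and the log2 length-corrected ratio fitted per feeding state, or over 12 libraries where events of both tables were joined (28444 events, 64 of regulators). edgeR 4.0.16 was an alternative. The RPKM table does not give depth. Regulator events summed to 12617 to 79533 inclusion counts per library, which limits the rarer forms. This inclusion sum was lower in every fasted Lpin1-/- library than in every fasted WT library, at 20320 or less against 20725 or more. Skipping counts overlapped, at 1529 to 2801 and 1508 to 5493. The scripts were tested on simulated data. Exon changes were planted there only in events with more counts of the rarer form than most called regulator events had. Calls on few counts were thus not covered.

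Members and lists were chosen with earlier results of these data known. All 10 regulators are described. Exons were named where called between genotypes (at most 3 per regulator, by counts of the rarer form) or where the regulator's counts of the rarer form were highest, and other exons are said to be named after their values were seen.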

Additional observations from a re-analysis of the deposited data

Results flagged for a closer look

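Rbm4 expression was lower in every fasted Lpin1-/- library than in every fasted WT library and higher in every refed Lpin1-/- library than in every refed WT library. The genotype differences in the 2 feeding states thus went opposite ways in all libraries, and the test of their difference gave 1.05 on the log2 scale, with a limma adjusted p of 0.0619.

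For the Rbm5 exon of 85 bases, joined to the shorter form of the next exon, the genotype effect differed between feeding states by 5.00 (limma adjusted p = 0.0344). For the Rbm5 exon of 74 bases it differed by 5.74 (limma adjusted p = 0.0323). Both passed the test of the difference itself, and neither passed in edgeR's test. The first rests on few skipping counts and was called in 3 of 15 alternatives, the second in 4 of 15. The event of the exon of 85 bases with more skipping counts gave 3.21 and did not pass (limma adjusted p = 0.285). Altered Rbm5 splicing in fasted Lpin1-/- liver had already been reported by the study from these libraries.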

How the results depend on the processing

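The count of regulators called in fasted liver (4) was 1 (Khdrbs3) when only the 6 fasted libraries were fitted and 1 to 5 when 1 library was left out. On refeeding of WT it was 0 to 1 with 1 library left out and 2 without fasted WT replicate 1 and refed Lpin1-/- replicate 1, and on refeeding of Lpin1-/- 5 to 8 with 1 library left out. The interaction count (0) was 1 at a minimum of 5 RPKM, 1 after rescaling, 1 without those 2 libraries and 0 to 1 with 1 library left out. For most of these settings the share of all genes called is not given here. A change in these counts thus cannot be told apart from a change over all genes.

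Called events in fasted liver (19) were 9 with precision weights, 8 by edgeR, 10 where the rarer form averaged 5 or more counts and 5 to 23 with 1 library left out. In refed liver (0) they were 3 at 50 counts, 3 with 1 added, 3 with weights, 3 with 5 rarer-form counts and 1 in the 12-library fit. On refeeding of Lpin1-/- (12) they were 7 to 14 with 1 library left out. The interaction count (2) was 0 at 20 counts, 0 at 50, 0 with weights, 0 by edgeR, 0 with 5 rarer-form counts and 0 to 3 with 1 library left out. Shares of all events called are not given here for most of these settings, so the counts cannot be read as particular to the regulators. The cause was not tested.

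Uncalled values near 0 changed sign. Ptbp1 in fasted liver was 0.14 after rescaling, 0.36 without the 2 libraries and -0.47 to 0.36 with 1 left out. Without the 2 libraries the refed differences of Esrp2, Ptbp1 and Rbm5 were -0.058, -0.078 and -0.049, and with 1 left out -0.14 to 0.25, -0.078 to 0.41 and -0.11 to 0.14. Refeeding of WT gave, after rescaling, -0.13 for Rbfox2, -0.12 for Mbnl1 and -0.064 for Celf1. With 1 library left out it gave -0.24 to 0.33 for Rbfox2, -0.26 to 0.45 for Mbnl1, -0.26 to 0.61 for Celf1, -0.0067 to 0.82 for Ptbp1, -0.094 to 0.015 for Rbm4 and -0.23 to 0.16 for Khdrbs3. The interaction was -0.44 for Ptbp1 without the 2 libraries, and with 1 left out -0.12 to 0.71 for Ptbp1 and -0.67 to 0.46 for Mbnl2. The Rbfox2 exon of 40 bases ran from -1.07 to 0.62.

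Libraries of the same replicate number were not treated as pairs in the main fit. Of 18 same-numbered pairs, 8 had deviations correlated above 0.1, and the 18 ran from -0.47 to 0.74. Differently numbered pairs ran from -0.70 to 0.63. The deviations of the 3 libraries of a group sum to 0, so these values cannot decide whether the numbers mark pairs. With the replicate block, 3 regulators were called in fasted liver, 0 in refed liver, 0 on refeeding of WT, 6 on refeeding of Lpin1-/- and 0 in the interaction. The shares of all genes called with the block are not given here, so these counts have no background. Exon counts carry no numbers and had no block.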

Other observations

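The fasted form of the Rbm10 exon of 231 bases fell under the count minimum and was not tested. Its inclusion and skipping counts were 69, 26 and 62 with 46, 14 and 33 in fasted WT, and 0, 4 and 0 with 4, 8 and 10 in fasted Lpin1-/- liver, or 25.4% to 29.9% against 0% to 10.2% inclusion. An unannotated Mbnl2 exon of 178 bases was likewise untested, with inclusion of 5.03%, 9.96% and 24.01% in fasted WT and 54.5%, 69.4% and 28.8% in fasted Lpin1-/- liver. Both were picked after their values were seen.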
